A study of Mus musculus with 12 samples.

Results

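The genes described here pass a death signal from the cell surface to the proteases that dismantle the cell, or hold that signal back. They are 8 of the 15803 transcripts with a read in at least 1 library, and they were chosen by symbol. They comprise 2 receptors, an adaptor, 2 initiator caspases and 3 inhibitors, namely Fas (ENSMUSG00000024778), Tnfrsf10b (ENSMUSG00000022074), Fadd (ENSMUSG00000031077), Casp8 (ENSMUSG00000026029), Casp9 (ENSMUSG00000028914), Cflar (ENSMUSG00000026031), Birc2 (ENSMUSG00000057367) and Xiap (ENSMUSG00000025860). Ribosome footprints and RNA-seq reads were measured in KPC cells, a pancreatic ductal adenocarcinoma line from tumours of mice that carry a mutant Trp53 allele switched on in the pancreas by Pdx1-Cre. Cells were left without treatment or received cisplatin (Cis), a drug that crosslinks DNA, for 6 or 21 h, at 20 μM by the study's methods. The labels call the controls untreated while the methods give PBS, so they are called PBS here, and their duration is not labelled. Each assay had 2 libraries per group, 12 libraries in all, and both times share the same PBS libraries. All groups are the same line, nothing says that libraries came from separate cultures, and p-values therefore measure only the spread between these libraries.

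Death receptors are surface proteins with a cytoplasmic death domain. Fas binds Fas ligand and Tnfrsf10b binds TRAIL, and the clustered receptors draw in the adaptor Fadd, which in turn gathers the inactive form of Casp8 so that it cuts and activates itself. Cflar resembles Casp8, competes for the same complex and limits that activation. Casp9 opens the mitochondrial route, on a scaffold of Apaf1 and cytochrome c, and both routes end in the proteases that dismantle the cell. Xiap binds Casp9 and blocks it, and Birc2 is a ubiquitin ligase that modifies Ripk1 at the TNF receptor and so favours survival signalling over death. Both receptor genes are known targets of p53, which is mutated in this line.

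Footprint libraries held 3375480 to 5204127 reads and RNA-seq libraries 1985344 to 2901692. In RNA-seq, 3 transcripts (Lars2, Tmem38b, Mettl26) accounted for 51.8 to 56.6% of reads, and the others shared the remaining 862476 to 1341584. Values are RPKM, reads scaled to the length of the feature and to the total of the library, so they are shares of a library and a change in total translation does not show in them. Krt8, Krt18 and Krt19 dominated the epithelial list, whose summed footprint RPKM was 9101 to 9781 in PBS, 9298 to 9356 at 6 h and 6697 to 6838 at 21 h, although Epcam stayed between 0.287 and 1.83. The 6 leukocyte markers summed to 1.87 to 2.67 footprint RPKM in PBS, 1.73 to 2.02 at 6 h and 3.57 to 9.68 at 21 h, with 3 to 4 of them at 0 in each library. Their RNA summed to 0.403 to 1.03 RPKM in PBS, 0 at 6 h and 2.13 to 4.27 at 21 h. All of that RNA was Cd68, and no other leukocyte marker had an RNA read in any library. The part of these markers in the results was not tested. The 6 fibroblast markers summed to 1.28 to 4.18 footprint RPKM over the 6 libraries, with 0 to 3 of them at 0. Endothelial markers summed to at most 0.666.

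Fas was the 1 member called in footprints, on 39 reads in PBS and 9 at 21 h. At 21 h its footprints were lower than in PBS, and no other member passed an adjusted p of 0.05 in footprints, RNA or their ratio at either time. Casp9 footprints at 21 h were just above that threshold (adjusted p = 0.05003 in limma). Tnfrsf10b, Fadd, Casp8 and Cflar had footprint changes at 21 h between -0.09 and 0.08 on the log2 scale. Beside 1 of 8 members called in footprints at 21 h, the test called 39.1% of all 10383 transcripts tested. At 6 h it called 0 of 8, with 1 at an unadjusted p under 0.05, beside 2.04% of all transcripts. All 8 members passed the low-value filter in footprints and 7 of 8 in RNA, where Fas had too few reads. In RNA, limma called 0 of 7 at 6 h, with 0 at an unadjusted p under 0.05, and 0% of 9443 transcripts, of which 1086 had an unadjusted p under 0.05 and voom called 57 higher and 172 lower. RNA calls at 21 h were 0 of 7, with 1 unadjusted, beside 23.8% of all. With voom, a count-weighted form of the test, 1 of the 7 passed in RNA at 21 h (Xiap), beside 1481 higher and 1523 lower of all 9443. The member counts of the other comparisons were as in the main test.

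The median absolute footprint change of the 8 members was 0.15 at 21 h and that of all tested transcripts was 0.38, and at 6 h these were 0.16 and 0.20. Footprints of 5 of 8 members did not overlap between PBS and 6 h, beside 54.5% of all transcripts, and at 21 h this held for 3 of 8, beside 70.0%. In RNA the groups were apart for 2 of the 7 tested members at 6 h, beside 44.8%, and for 4 of 7 at 21 h, beside 64.2%. These are descriptions of a short list and were not tested.

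**Figure D1:**
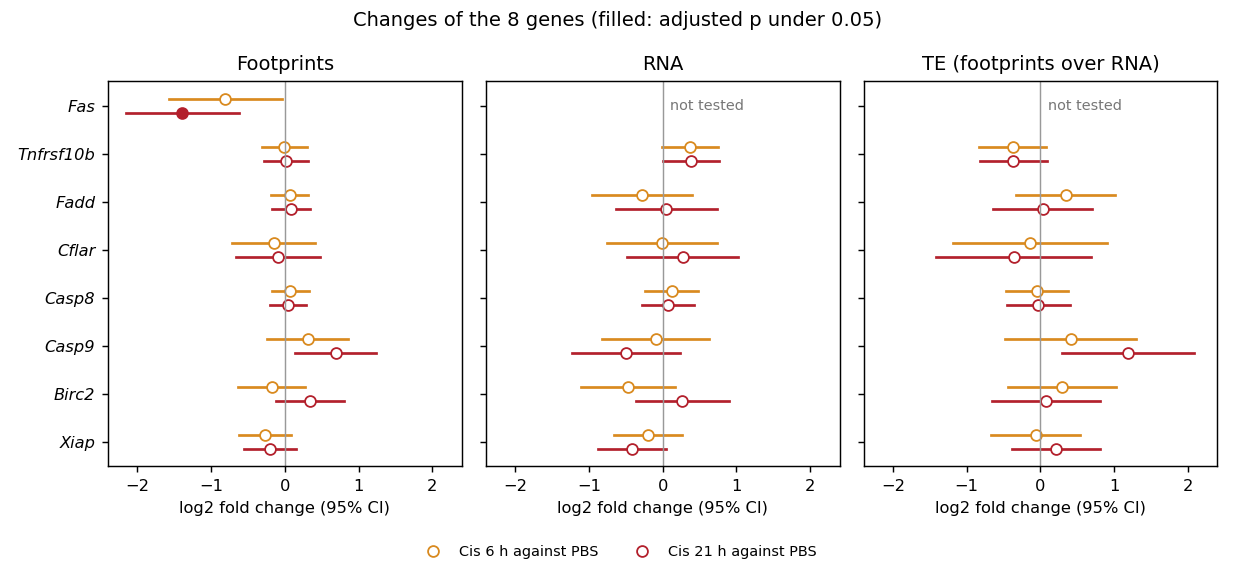
Log2 fold changes of the 8 genes against PBS (x axis, with 95% confidence intervals) in footprints, RNA and their ratio, for 6 h (orange) and 21 h (red) of cisplatin. The filled point is the change with an adjusted p under 0.05, that of Fas footprints at 21 h (-1.39), and Fas was not tested in RNA or in the ratio.

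Among the receptors, Fas had the lowest RNA of the 8 and few footprints. Its footprint RPKM was 4.70 and 3.28 in PBS, 1.74 and 2.42 at 6 h, and 1.66 and 0.876 at 21 h. Both libraries of each treated group lay below both PBS libraries, and the 21 h pair lay below the 6 h pair. These values rest on 24 and 15 reads in PBS, 8 and 8 at 6 h, and 6 and 3 at 21 h. The fitted change at 21 h was -1.39 on the log2(RPKM + 0.5) scale (SE 0.34, 95% CI -2.16 to -0.62), or 0.381-fold on that scale, with an adjusted p of 0.0114 in limma. From the summed reads alone, 39 and 9, the ratio of depth-scaled reads was 0.317 with an exact 95% interval of 0.135 to 0.666, which covers counting error only. In bulk lysates, fewer cells that make Fas and less Fas per cell cannot be told apart. Without the first PBS library the change was -1.18 with an adjusted p of 0.0924, and without the second 21 h library it was -1.06 with an adjusted p of 0.0559, so the call rests on each of these libraries. At 6 h the change was -0.81 (SE 0.34, adjusted p = 0.215), and between 6 and 21 h it was -0.58 (SE 0.34, adjusted p = 0.223), with a range of -0.90 to -0.26 over single libraries left out. RNA-seq gave Fas 4 and 1 reads in PBS, 2 and 5 at 6 h, and 1 and 1 at 21 h, so a change of its RNA was not detectable at this depth and no ratio to RNA is given.

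Tnfrsf10b, the TRAIL receptor, was translated at a far higher level and its footprints did not pass the test. They stood at 73.1 and 82.8 RPKM in PBS, 83.2 and 73.6 at 6 h, and 73.1 and 89.4 at 21 h, and the 3 groups overlapped. The change at 21 h was 0.02 with a 95% CI of -0.28 to 0.32, and at 6 h it was -0.01 with a 95% CI of -0.31 to 0.29. RNA of Tnfrsf10b was 7.92 and 9.43 RPKM in PBS, 11.1 and 10.5 at 6 h, and 12.7 and 11.6 at 21 h. All 4 treated RNA libraries lay above both PBS libraries. That difference was 0.37 at 6 h (SE 0.17, adjusted p = 0.444) and 0.38 at 21 h (SE 0.17, adjusted p = 0.131, unadjusted p = 0.0478), and neither passed the test across all transcripts. The ratio of footprints to RNA gave -0.38 at 6 h (SE 0.21, adjusted p = 0.745) and -0.37 at 21 h (SE 0.21, adjusted p = 0.50).

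**Figure D2:**
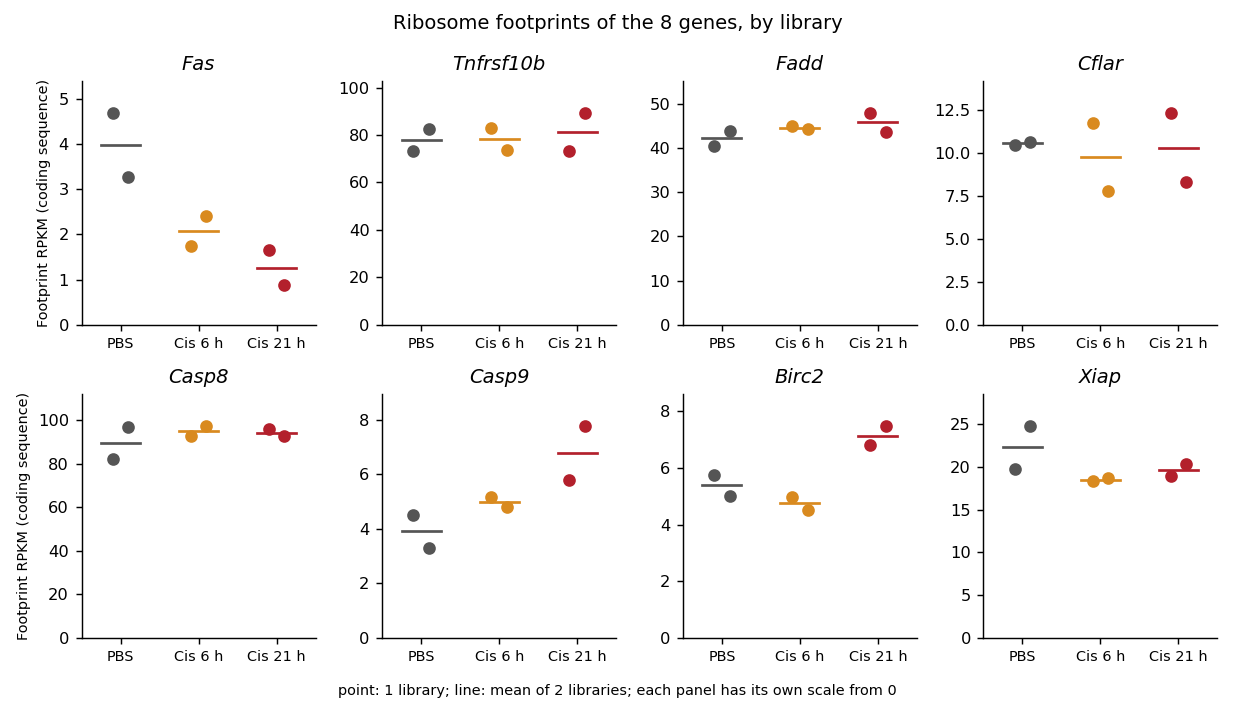
Footprint RPKM of the 8 genes (y axis, reads scaled to coding length and library size, a scale of its own from 0 in each panel) in PBS, 6 h and 21 h libraries. Points are single libraries and lines are means of 2, and the treated Fas points, 0.876 to 2.42, sit below the PBS points, 3.28 and 4.70, while those of Tnfrsf10b and Casp8 overlap between groups.

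The core of the receptor complex, Fadd and Casp8, had footprints that varied little over the 6 libraries. Fadd footprints were 40.6 and 44.0 RPKM in PBS, 45.1 and 44.3 at 6 h, and 48.1 and 43.8 at 21 h. Casp8 footprints were 82.4 and 96.7 in PBS, 92.6 and 97.4 at 6 h, and 96.0 and 92.6 at 21 h. The intervals of the change at 21 h were -0.17 to 0.34 for Fadd and -0.21 to 0.29 for Casp8, and those at 6 h were -0.19 to 0.32 and -0.18 to 0.32. Casp8 stood at 2.00 to 2.20 times the footprint level of Fadd in each of the 6 libraries. Casp8 RNA was 18.9 and 15.7 RPKM in PBS, 18.0 and 17.8 at 6 h, and 17.0 and 21.7 at 21 h (change at 21 h 0.07, SE 0.16; at 6 h 0.12, SE 0.16). Fadd RNA was low, at 2.29 and 3.71 RPKM in PBS, 2.58 and 1.89 at 6 h, and 2.64 and 3.92 at 21 h, from 17 to 42 reads a library, and its changes of -0.28 at 6 h and 0.05 at 21 h both had an SE of 0.30.

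Cflar, the Casp8 competitor, had treated libraries on both sides of PBS in footprints. These were 10.5 and 10.6 RPKM in PBS, 11.7 and 7.75 at 6 h, and 12.3 and 8.28 at 21 h. PBS lay inside the range of each treated group, and the change at 21 h was -0.09 (95% CI -0.66 to 0.47) and at 6 h -0.15 (95% CI -0.71 to 0.41). Cflar RNA was 8.71 and 6.81 RPKM in PBS, 11.4 and 4.65 at 6 h, and 9.21 and 10.8 at 21 h (change at 21 h 0.27, SE 0.34, adjusted p = 0.595; at 6 h -0.01, SE 0.34). In RNA both 21 h libraries lay above both PBS libraries, and the 6 h libraries lay on either side of them. The footprint level of Casp8 over that of Cflar was 7.88 and 9.09 in PBS, 7.89 and 12.6 at 6 h, and 7.79 and 11.2 at 21 h, so the lowest library of each group was nearly the same. A single Cflar transcript is listed, and the long and short forms of the protein cannot be told apart in these values. Cflar and Casp8 are neighbours on chromosome 1 in the RefSeq annotation (GRCm38.p6), with no coding gene between them.

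Casp9, the mitochondrial initiator, had the largest footprint value in the higher direction among the 8. It was read at 4.51 and 3.31 RPKM in PBS, 5.16 and 4.79 at 6 h, and 5.78 and 7.78 at 21 h. Both 6 h libraries lay above both PBS libraries, and both 21 h libraries lay above all others. Read numbers were 32 and 21 in PBS, 33 and 22 at 6 h, and 29 and 37 at 21 h. The fitted change was 0.31 at 6 h (SE 0.24, adjusted p = 0.497) and 0.69 at 21 h (SE 0.24, 95% CI 0.14 to 1.24), where the adjusted p of 0.05003 was just above the threshold. That call was made in 6 of 16 alternative settings. Among them was the filter at a mean of 5 RPKM, which Casp9 passed only through its 21 h libraries. Without the first 21 h library the change was 0.90. The lowest values were 0.50 without the second 21 h library (adjusted p = 0.21) and 0.51 without the second PBS library (adjusted p = 0.247). Casp9 RNA was in the other direction, at 2.61 and 3.01 RPKM in PBS, 1.94 and 3.11 at 6 h, and 2.53 and 1.47 at 21 h, and both 21 h libraries lay below both PBS libraries. Its RNA change was -0.50 at 21 h (SE 0.33, adjusted p = 0.303; -0.83 to -0.16 over single libraries left out) and -0.10 at 6 h (SE 0.33). The change of the footprint to RNA ratio at 21 h was 1.18 (SE 0.41, 95% CI 0.29 to 2.08), with an unadjusted p of 0.0135 and an adjusted p of 0.268.

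Xiap, which blocks Casp9, had footprints of 19.8 and 24.8 RPKM in PBS, 18.3 and 18.7 at 6 h, and 19.0 and 20.4 at 21 h. The 6 h libraries lay below PBS and the 21 h libraries overlapped it. Its changes were -0.27 at 6 h (SE 0.15, adjusted p = 0.365) and -0.20 at 21 h (SE 0.15, adjusted p = 0.331). Over single libraries left out these ranged from -0.45 to -0.09 and from -0.38 to -0.03. Xiap RNA was 12.9 and 14.4 RPKM in PBS, 8.99 and 14.0 at 6 h, and 10.7 and 10.6 at 21 h, a difference of -0.42 at 21 h (SE 0.21, adjusted p = 0.174) that passed with voom (-0.43, adjusted p = 0.00523). At 6 h it was -0.20 (SE 0.21). Footprints of Xiap over those of Casp9 stood at 4.38 and 7.50 in PBS, 3.55 and 3.91 at 6 h, and 3.28 and 2.62 at 21 h. All treated libraries lay below PBS in this ratio. This ratio was not tested.

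Birc2, the ubiquitin ligase, had values on opposite sides of PBS at the 2 times. Footprints were 5.76 and 5.02 RPKM in PBS, 4.99 and 4.52 at 6 h, and 6.80 and 7.49 at 21 h, so that 6 h lay below PBS and 21 h above it. Against PBS the changes were -0.18 (SE 0.20, adjusted p = 0.659) and 0.34 (SE 0.20, adjusted p = 0.208). Birc2 RNA had the same order of group means, with 4.15 and 2.48 RPKM in PBS, 1.97 and 2.21 at 6 h, and 4.00 and 4.45 at 21 h (-0.47 at 6 h and 0.27 at 21 h, SE 0.28 for both). The RNA change at 6 h ranged from -0.81 to -0.14 over single libraries left out. Between 6 and 21 h the difference was 0.52 in footprints (SE 0.20, 95% CI 0.06 to 0.98, adjusted p = 0.0823) and 0.74 in RNA (SE 0.28, 95% CI 0.11 to 1.37, adjusted p = 0.109). In that comparison limma called 0 of 8 members in footprints (1 unadjusted), beside 30.7% of all, and 0 of 7 in RNA (1 unadjusted), beside 15.7%. Without a variance trend the Birc2 footprint difference passed (adjusted p = 0.0364). Birc2 and its close relative Birc3 are neighbours on chromosome 9 and can share reads, and how shared reads were counted is not given in the sources used here. Birc3 itself had 1.06 and 0.713 footprint RPKM in PBS, 0.826 and 0.328 at 6 h, and 0.751 and 1.27 at 21 h.

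**Figure D3:**
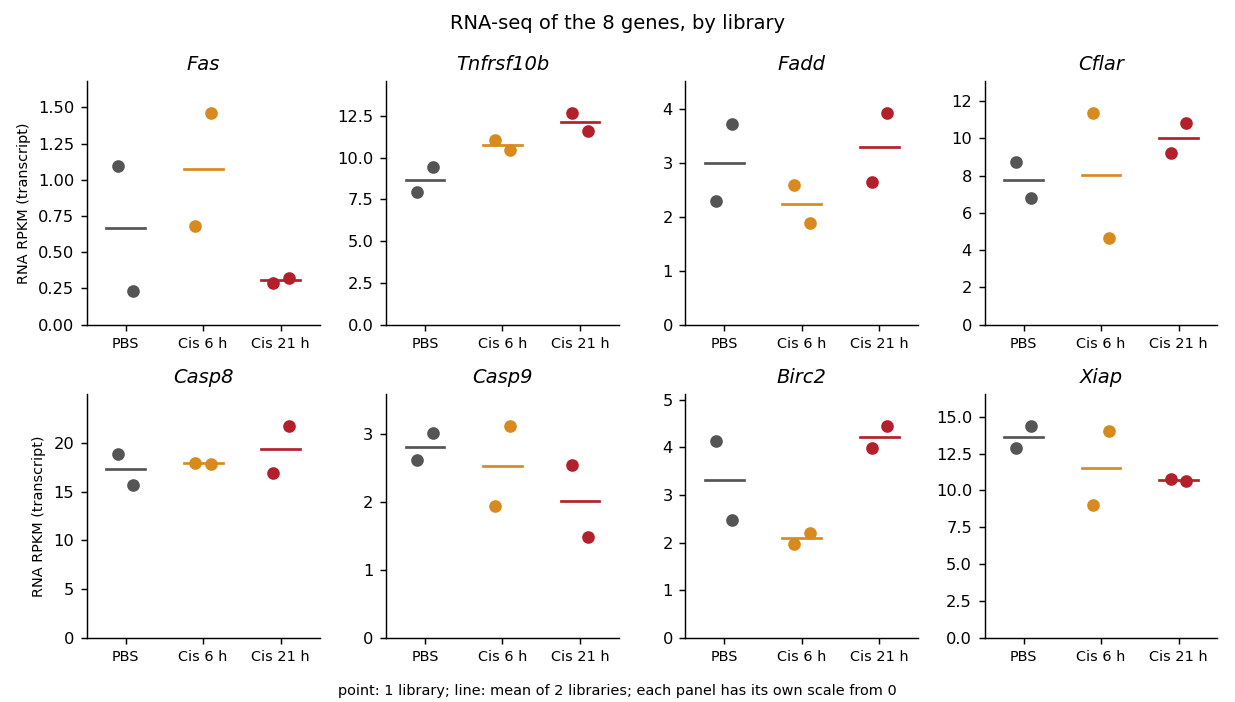
RNA RPKM of the 8 genes (y axis, reads scaled to transcript length and library size, a scale of its own from 0 in each panel) in PBS, 6 h and 21 h libraries. Points are single libraries and lines are means of 2, and the 4 treated Tnfrsf10b points, 10.5 to 12.7, sit above PBS at 7.92 and 9.43, while Fas has at most 1.46 RPKM in any library.

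In PBS the 8 genes spanned a wide range of footprint levels per kilobase. Casp8 led at 89.5 ± 10.1 RPKM (SD, n = 2), followed by Tnfrsf10b at 78.0 ± 6.82, and these overlapped. Fadd (42.3 ± 2.36), Xiap (22.3 ± 3.57), Cflar (10.5 ± 0.130) and Birc2 (5.39 ± 0.517) came next, each clear of the one after it. Fas (3.99 ± 1.004) and Casp9 (3.91 ± 0.853) were last and overlapped. In RNA per kilobase the order was Casp8, Xiap, Tnfrsf10b, Cflar, Birc2, Fadd, Casp9 and Fas, and Tnfrsf10b overlapped Cflar while Birc2, Fadd and Casp9 overlapped in turn. Fadd was therefore the third of the 8 in footprints and the sixth in RNA.

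Footprint level over RNA level, an index of translation efficiency (TE), was higher in PBS for Fadd, Tnfrsf10b and Casp8 than for the inhibitors and Casp9. From group means the ratio was 14.1 for Fadd, above 96.8% of the 9295 transcripts tested in both assays, 8.98 for Tnfrsf10b (91.4%) and 5.18 for Casp8 (72.4%). It was 1.63 for Xiap (16.0%), 1.63 for Birc2 (15.9%), 1.39 for Casp9 (11.8%) and 1.36 for Cflar (11.2%), and the median over all was 3.44. Fadd stayed above 96.8% or more of transcripts at 6 h (98.5%) and 21 h (96.9%), and Cflar above 8.45% and 7.83%. Footprints were divided by the coding length and RNA by the whole transcript, and the coding sequence is 15.8% of the listed transcript for Fadd, 21.8% for Xiap, 35.0% for Casp9, 36.0% for Tnfrsf10b, 55.1% for Birc2, 81.1% for Casp8 and 82.0% for Cflar. Whether these cells use transcripts of the listed lengths was not tested. The test of change in the ratio called 0 of 7 at 6 h (0 unadjusted), beside 0% of all transcripts, where 710 had an unadjusted p under 0.05 and voom called 4 higher and 10 lower. It called 0 of 7 at 21 h (1 unadjusted, Casp9), beside 0.409%, and 0 of 7 between 6 and 21 h (0 unadjusted), beside 1.01%. In simulated data with 200 transcripts changed in footprints alone, this test recovered 0.503% of log2 changes of 1 at 21 h. The number changed and the spread were set by hand, so this is not the power of the reported test. The counts of 0 do not show that the ratio was unchanged.

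The wider pathway held 51 listed genes by role, and 48 of them had a read. Apart from the 8 members, 31 were tested in footprints at 21 h, of which 8 were higher and 4 lower, beside 18.9% and 20.2% of all transcripts. In RNA 29 were tested, with 5 higher and 3 lower, beside 11.6% and 12.2%. Cradd was among the 3 lower in RNA, although it passed the low-value filter there only through its PBS libraries. The list's counts of calls, in footprints and in RNA, were lower with some single PBS or 21 h libraries left out. Calls over all transcripts were also fewer in those fits. They leave 1 library in a group, so their counts are not given. At 6 h limma called 0 of 31 in footprints, beside 2.04% of all transcripts, and 7 had an unadjusted p under 0.05, beside 21.4%. Tnfsf10 is among the 31 and among these 7, although it passed the low-value filter only through its 6 h libraries. In RNA at 6 h it called 0 of 29, beside 0%, and 3 had an unadjusted p under 0.05, beside 11.5%. With voom 3 were higher and 2 lower in footprints at 6 h, beside 12.3% called in either direction, and 0 were called in RNA, beside 2.43%. In footprints at 6 h a pseudocount of 1 gave 1 higher, beside 130 higher and 138 lower over all transcripts. Quantile normalization gave 1 higher, beside 136 and 126. The filter at 5 RPKM gave 1 higher of 25, beside 182 and 162 of 8254. With only the groups compared 1 was higher and 1 lower, beside 198 and 244.

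Among receptors, 2 were called higher and 2 lower in footprints at 21 h, Fas included, where 39.1% of all transcripts were called in either direction. Tnfrsf12a, the receptor for TWEAK, rose from 294 and 281 footprint RPKM in PBS to 688 and 664 at 21 h (log2 change 1.2, SE 0.09, adjusted p = 5.68e-05), and its RNA rose by 1.10 (SE 0.14, adjusted p = 7.31e-04). Tnfrsf1b, the second TNF receptor, which has no death domain, rose by 0.59 (adjusted p = 0.00918), and was not called without the second PBS library (0.47, adjusted p = 0.0636). Tnfrsf21, a death receptor, changed by -0.66 (adjusted p = 0.0191), a call lost without the first PBS library (-0.67, 0.0746), the second (-0.65, 0.0852) or the first 21 h library (-0.40, 0.0848). Tnfrsf1a, the TNF receptor with a death domain, had a value of 0.23 (SE 0.15, adjusted p = 0.249).

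Of the 10 adaptors and kinases tested, 2 were higher and 2 lower, beside the same 39.1% of all. Cradd, which links death domains to Casp2, fell from 16.1 and 12.9 footprint RPKM in PBS to 4.998 and 1.44 at 21 h (-2.22, SE 0.41, adjusted p = 0.00309; -1.47 without the second 21 h library), and its RNA went from 12 and 9 reads to 1 and 0. Faf1, a Fas-associated protein, fell from 28.9 and 28.3 to 6.27 and 9.12 (-1.89, SE 0.18, adjusted p = 1.53e-04), and by 1.41 in RNA (adjusted p = 0.00252). Ripk3, the kinase of necroptosis, rose from 1.84 and 0.883 to 4.84 and 4.12 RPKM, from 14 and 6 reads to 26 and 21 (1.43, SE 0.35, adjusted p = 0.0112). It was not called without the second PBS library (1.07, adjusted p = 0.0827). Traf2, an adaptor that recruits Birc2, was the other higher one and was named after its value was seen. Ripk1 had a value of 0.21 (SE 0.14, adjusted p = 0.246).

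Of the 8 caspases tested in footprints, 1 was higher and 0 lower, beside 39.1% of all transcripts called in either direction. Casp2 rose by 0.51 (SE 0.13, adjusted p = 0.0156), and was not called without the second PBS library (0.45, adjusted p = 0.0886) or the second 21 h library (0.38, adjusted p = 0.0789). Bid, the Casp8 substrate that carries the signal to mitochondria, was the 1 called in footprints of the 4 tested apoptosome and substrate genes, at 0.55 (SE 0.13, adjusted p = 0.0106), a call lost without the second PBS library (0.50, 0.0623) or the second 21 h library (0.42, 0.0559). The Bid footprint change at 6 h was 0.63 (SE 0.13), where the adjusted p of 0.0512 in limma was just above the threshold. In RNA at 21 h 1 of the 6 tested caspases was called, beside 23.8% of all transcripts in either direction. It was Casp6, at -0.73 (adjusted p = 0.0457), and 6 of its 16 alternatives made the call. Its change was -0.47 without the second PBS library and -0.49 without the second 21 h library.

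Inhibitors had 2 genes called higher and 1 lower of 7 in footprints, beside 39.1% of all, and none of these was a member. Tnfaip3 (A20), a ubiquitin-editing inhibitor of TNF receptor signalling, rose from 7.52 and 8.21 footprint RPKM to 17.4 and 15.8 (0.99, SE 0.17, adjusted p = 0.00220) and by 1.05 in RNA (adjusted p = 0.0105), where the call was lost without the first PBS library (0.92, 0.0756) or the first 21 h library (0.81, 0.0762). Birc5 (survivin) rose by 0.68 in footprints (SE 0.09, adjusted p = 5.64e-04) and 0.67 in RNA (SE 0.09, adjusted p = 0.00127). Birc6 changed by -0.73 (SE 0.17, adjusted p = 0.00998), and was not called without the first PBS library (-0.70, adjusted p = 0.0600). Among the antagonists of these inhibitors, RNA of Diablo rose from 4.38 and 5.69 to 11.7 and 12.7 RPKM (1.13, SE 0.20, adjusted p = 0.00340). Its footprints were 1 and 0 reads in PBS, 0 and 0 at 6 h, and 6 and 5 at 21 h, too few for a test.

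**Figure D4:**
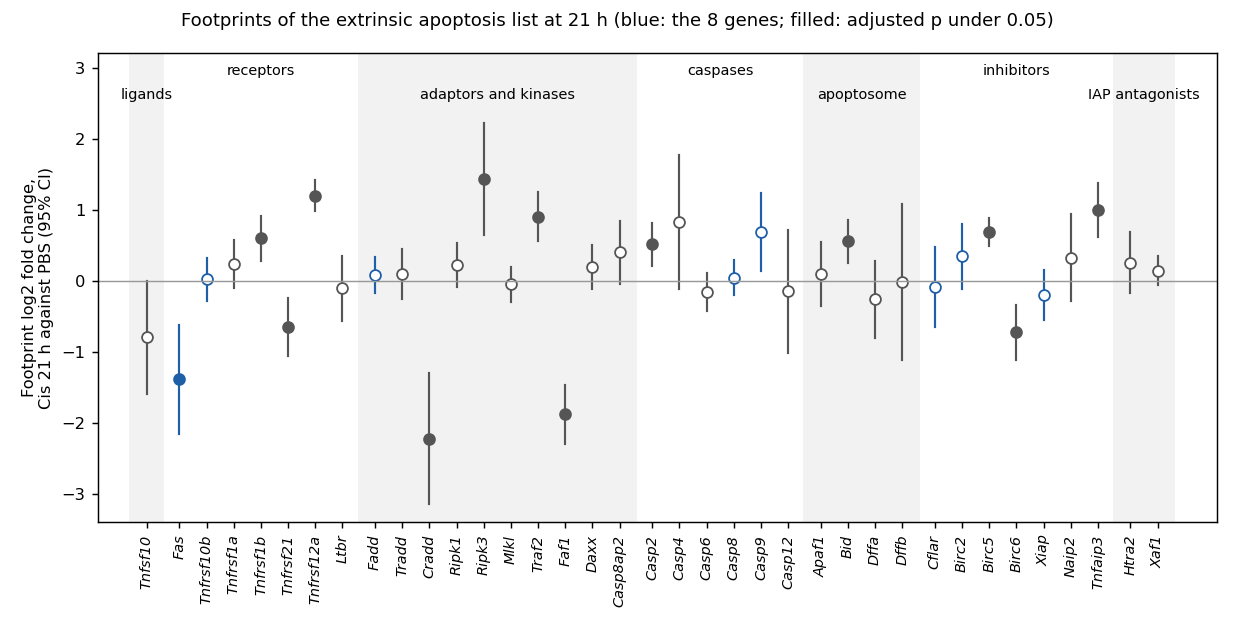
Footprint log2 fold changes at 21 h against PBS (y axis, with 95% confidence intervals) of tested genes of the pathway list, 8 members and 29 others, ordered by role along the x axis. Blue points are the 8 members and grey points the others, and filled points have an adjusted p under 0.05, 1 of the 8 members (Fas) and 12 of the 29 others shown.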

How the data were processed

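Footprints and RNA-seq reads were measured in 12 libraries of KPC cells, 2 per assay and group, grouped by the labels. The authors deposited RPKM values, per library and for 1 transcript a gene, divided by coding length for footprints and transcript length for RNA-seq. The submitters' processing notes name cutadapt, STAR and GRCm39, with no versions. RPKM times length gave whole reads within 0.001, hence the depth. Unlisted transcripts were set to 0. The members and lists were chosen with earlier results of these data known.

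RPKM was scaled by median-of-ratios factors within each assay. Transcripts with a mean of at least 1 were kept, and limma 3.58.1 (R 4.3.3; eBayes with trend, 3 groups in 1 model) was run on log2(RPKM + 0.5). TE was the interaction of assay and treatment over 12 libraries. P-values are two-sided, adjusted by Benjamini-Hochberg over all transcripts, with a threshold of 0.05. Pathway genes are named if called at 21 h, at most 3 per role by size of change, or as closest relatives of members, and some listed genes are not reported here. Alternatives were pseudocounts, filters, scalings, no trend, separate groups, a replicate block, voom and leaving out each library. Means ± SD are of deposited RPKM. The code was tested on simulated reads with a log2 change of 1 at 21 h in 200 transcripts, in 1 assay at a time. It recovered 44% of the changed transcripts in footprints, 16.7% in RNA and 0.503% in TE. The number changed and the spread were set by hand, so these shares are not the power of the reported tests.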

Additional observations from a re-analysis of the deposited data

How the results depend on the processing

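Each count of members called and each named change was recomputed under 10 other settings and without each library in turn. The count for footprints at 21 h against PBS, 1 of 8, was 2 with a pseudocount of 1, without scaling, with quantile normalization and without a variance trend, where Casp9 passed as well. Calls over all transcripts were, in this order, 1980 higher and 2117 lower, 2183 and 1971, 2037 and 1991, and 1637 and 1910. The main test made 1960 and 2101. The member count moved with some single libraries left out, where calls over all transcripts were fewer. With a mean RPKM of at least 5 Fas was not tested, and Casp9 was the 1 called, beside 1876 higher and 1729 lower of all 8254. Casp9 passed that filter only through its 21 h libraries, with means of 3.91 RPKM in PBS, 4.975 at 6 h and 6.78 at 21 h. That call is therefore no separate support for a rise. Footprints at 21 h against 6 h gave 1 (Birc2) without a variance trend, beside 1109 higher and 1339 lower over all transcripts. RNA at 21 h against PBS gave 1 (Xiap) with voom, beside 1481 higher and 1523 lower. The cause was not tested in these cases. The other 6 counts remained 0 in all settings run. Of 996 recomputed changes of named genes, 933 had the same direction and side of the threshold, 9 passed newly, 25 no longer passed and 29 changed sign, none of them called. Footprints of Tnfrsf10b at 6 h were 0.0080 without scaling and 0.0058 with voom, and at 21 h -0.078 with quantile normalization, which also gave -0.055 for Casp8 footprints and -0.034 for Casp8 RNA at 21 h. Cflar RNA at 6 h was 0.00054 with a pseudocount of 1 and 0.0049 with quantile normalization.

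With a library left out, footprint changes at 6 h ranged from -0.12 to 0.096 (Tnfrsf10b), -0.017 to 0.14 (Fadd), -0.43 to 0.13 (Cflar) and -0.067 to 0.20 (Casp8), and at 21 h from -0.12 to 0.17 (Tnfrsf10b), -0.36 to 0.19 (Cflar) and -0.094 to 0.17 (Casp8). RNA changes ranged at 6 h from -0.61 to 0.60 (Cflar), -0.030 to 0.26 (Casp8), -0.38 to 0.19 (Casp9) and -0.51 to 0.10 (Xiap), and at 21 h from -0.24 to 0.33 (Fadd), -0.078 to 0.21 (Casp8) and -0.070 to 0.59 (Birc2).

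Deviations of libraries with the same replicate number correlated by -0.0143 to 0.0215, which shows no sign of pairing by number. With 2 libraries per group this cannot exclude that libraries share a culture or lysate. The main models, TE included, treat the libraries as unpaired. With a replicate block Fas footprints at 21 h kept their call (adjusted p = 0.0158). The members called were then 1 in footprints at 21 h, beside 1857 higher and 2012 lower of 10383 transcripts, and 0 elsewhere. Over all transcripts the calls for the ratio at 21 h went from 24 higher and 14 lower to 0 and 0. Depth limits Fas most, with 3 to 24 footprint reads and 1 to 5 RNA reads a library, and the 2 libraries per group limit all tests.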

Other observations

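Tnfsf10 (TRAIL), the ligand of Tnfrsf10b, was the 1 ligand of the list tested in footprints, and it is named here after its values were seen. Its footprints were 1.10 and 0.737 RPKM in PBS, 2.20 and 2.38 at 6 h, and 0.311 and 0.328 at 21 h, from 5 and 3, 9 and 7, and 1 and 1 reads. Both 6 h libraries lay above PBS and both 21 h libraries below it. The gene passed the filter on low values through its 6 h libraries, so no test of it is given.

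The 3 transcripts whose pattern over the 12 libraries was nearest to that of Fas, by Euclidean distance of log2 values centred on PBS, were E130308A19Rik (distance 1.09), Pter (1.19) and Ikzf2 (1.21), where the median over all 10383 tested in footprints was 2.96. This is a description with no test, and E130308A19Rik and Ikzf2 have few reads too, with means of 18.0 and 17.5 footprint reads in PBS and 1.5 and 2.5 at 21 h.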
